A study of Homo sapiens with 21 samples.

Results

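RNA sequencing of cells that the labels call HepG2, a liver tumour line, was used to compare coumarin at 10 µM with the 4 doses beneath it. Coumarin is a benzopyrone made by plants and used as a fragrance. The comparison sets the 3 libraries at 10 µM against the 12 libraries at 0.001, 0.01, 0.1 and 1 µM (3 at each dose), chosen by their labelled dose, so that it takes in 15 of the 21 libraries of the study and all of its 58735 genes. All 15 cultures were exposed for 24 h in serum-free medium after the serum-containing medium had been removed and the cells washed. The 3 libraries at 100 µM and the 3 at 0 µM do not enter the comparison, and their values are given only beside it. The labels call the libraries of a dose biological replicates without saying whether they came from separate passages or days, so the p-values measure the spread between these cultures. The question put to the data was which transcripts moved first along the dose series, in libraries that had all received the compound.

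Retinoic acid, the active form of vitamin A, enters gene control by binding nuclear receptors (RARA, RARB and RARG, paired with the RXR receptors) that sit on paired half-sites in DNA. Cells keep its level steady by feedback: retinoic acid raises the transcripts of the CYP26 hydroxylases that clear it, of DHRS3, which turns retinaldehyde back into retinol, and of STRA6, the membrane receptor that takes up retinol from its carrier protein. The liver is the main store of vitamin A. A separate arm of metabolism, the amino acid response, works through the transcription factor ATF4, which raises genes of serine and asparagine synthesis, of aminoacyl-tRNA synthetases and of stress regulators when amino acids run short or the endoplasmic reticulum is stressed.

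Gene counts totalled 26984563 to 43375429 per library at 10 µM, where replicate 3 was the deepest, and 27295690 to 33246725 at 0.001 to 1 µM. The hepatocyte character of the label was not seen in the counts: ALB, TTR, APOC3, FGB and RBP4 had no count in any of the 15 libraries, and none of the 19 hepatocyte markers listed had enough counts to be tested. Together those markers reached 0.0735 to 0.231 CPM (counts divided by the TMM-scaled library total) at 10 µM and 0.0925 to 0.483 CPM at 0.001 to 1 µM. Keratin and other epithelial markers summed to 4559 to 4741 CPM at 10 µM and 4961 to 5296 CPM at 0.001 to 1 µM. Fibroblast markers summed to 1627 to 1765 CPM at 10 µM and 1790 to 1915 CPM at 0.001 to 1 µM. Neither sum overlapped between the groups, and 1.14% of all genes tested lay below the range of the 12 in the same way. The epithelial sum was mostly KRT8, KRT18 and KRT7, with means of 2472, 1140 and 681 CPM at 10 µM and 2705, 1304 and 766 CPM at 0.001 to 1 µM. EPCAM, CDH1, KRT19, KRT5, KRT14 and TP63 stayed under 1 CPM in each of the 15 libraries. COL3A1 and VIM gave most of the fibroblast sum, with means of 1170 and 307 CPM at 10 µM. At 0.001 to 1 µM their means were 1300 and 310 CPM, so the lower sum came mostly from COL3A1. COL1A2, PDGFRA, THY1 and LUM stayed under 1 CPM in each of the 15 libraries. The share of counts from mitochondrial genes was 6.70% to 6.90% at 10 µM and 6.98% to 8.75% at 0.001 to 1 µM. Of 8 endothelial markers 2 and of 10 leukocyte markers 1 could be tested, and none of them was called. The part these shares and markers play in the results was not tested.

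Of 16361 genes with enough counts to be tested, 359 (2.19%) differed between 10 µM and 0.001 to 1 µM at a Benjamini-Hochberg adjusted p under 0.05 in edgeR's quasi-likelihood test. Of these, 93 were higher at 10 µM (0.568% of the genes tested) and 266 lower (1.63%), and 339 code for protein. The changes were small, with a median size of 0.19 on the log2 scale, and 50 of the 359 differed by 25% or more (larger over smaller level), 8 of them higher and 42 lower. Just 6 reached 2-fold, and of these the retinoic acid hydroxylase gene CYP26B1 was the one measured above 1.5 CPM. The others, named here after their values were seen, were C19orf66, GUSBP9, NPIPA7, RN7SL3 and FALEC. All 3 libraries at 10 µM lay outside the range of the 12 others for 45 of the genes called higher and 109 of those called lower, where 118 (0.721%) and 187 (1.14%) of all genes tested did so above and below. In RNA from whole cultures, fewer cells of a type and less RNA per cell cannot be told apart.

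**Figure D1:**
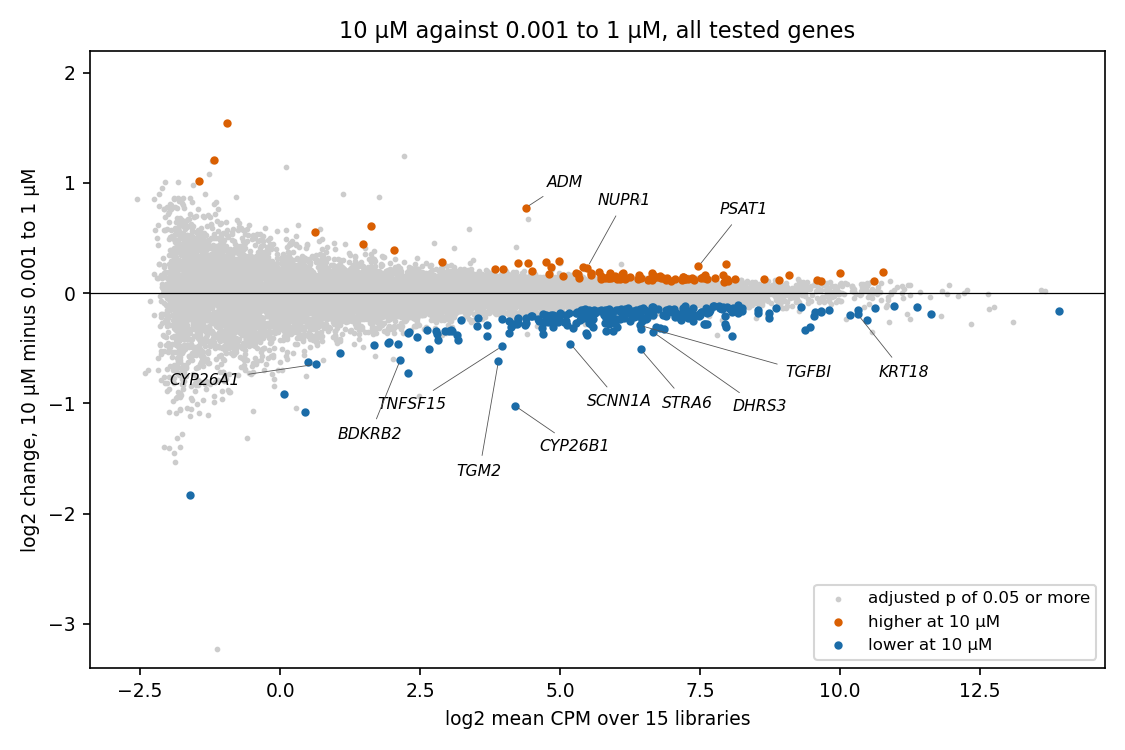
Each point is 1 of the 16361 genes tested, with the log2 of its mean CPM over 15 libraries on the horizontal axis and its log2 change, 10 µM minus 0.001 to 1 µM, on the vertical axis. Orange points were higher and blue points lower at an edgeR adjusted p under 0.05, and CYP26B1 stands lowest among the called genes of moderate level, at -1.02.

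The number of calls rested in part on single libraries. Without 10 µM replicate 1 it was 83 (14 higher, 69 lower), and without any other single library it lay between 257 and 437. Without the 0.01 µM group it was 98, without the 0.1 µM group 215, and without the 1 µM group 633, and without the 0.001 µM group 370. A core of 65 genes passed the test in the full set and without each of the 15 libraries in turn, 9 of them higher and 56 lower, and 59 of these also passed without each lower dose group. The genes called lower were richer in GC (median 57.4%) than those called higher (44.6%), against 48.4% for all genes tested. With each library's trend over GC content and length removed, 572 genes were called and 52.3% of them were lower, against 74.1% without that step.

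**Figure D2:**
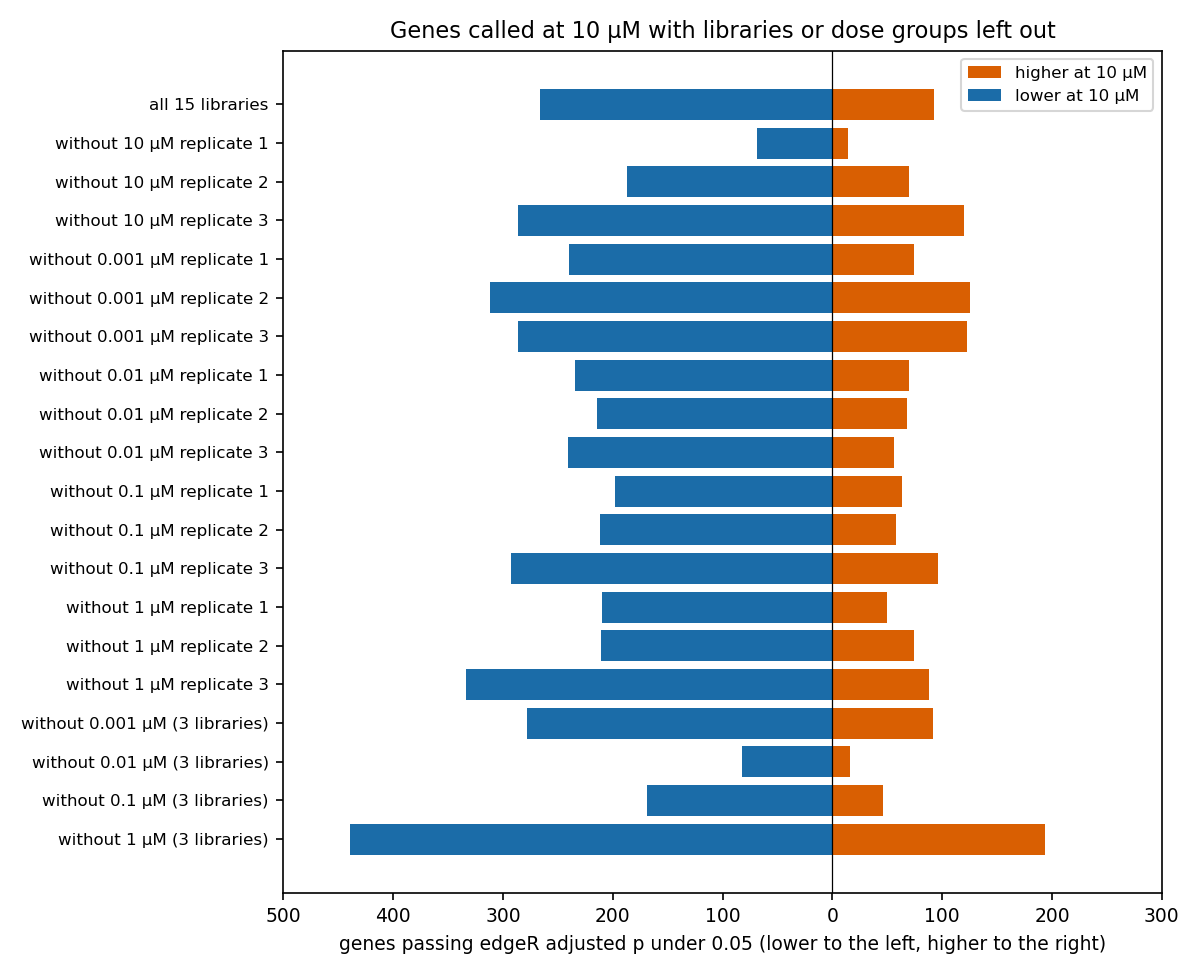
Bars give the number of genes passing an edgeR adjusted p under 0.05, higher at 10 µM to the right and lower to the left, for all 15 libraries and with 1 library or 1 lower dose group left out. The bars are shortest without 10 µM replicate 1 (14 higher, 69 lower) and without the 0.01 µM group (16 higher, 82 lower), and longest without the 1 µM group (194 higher, 439 lower).

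Some transcripts of retinoic acid uptake, clearance and response fell at 10 µM. Of 26 listed genes of retinoic acid uptake, synthesis, clearance and response, 18 could be tested, 7 fell, 11 were not called and none rose, against 1.63% of all genes called lower. The median log2 change of the 18 was -0.224, against 0.006 for all genes tested. The fallers were CYP26B1, STRA6, TGM2, DHRS3, RARRES1, RARA and CYP26A1, and the first 4 of these had all 3 libraries at 10 µM below all 12 libraries at 0.001 to 1 µM. With members that were not called, 5 of the 18 lay below in this way, against 1.14% of all genes tested. The count was 6 or 7 without any 1 library, 6 with the replicate block and with limma on log2 FPKM, and 5 with DESeq2, which gave RARRES1 and CYP26A1 no adjusted p.

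CYP26B1 (ENSG00000003137, chr2:72129238-72148038 on the minus strand, GRCh38), which oxidises retinoic acid to less active forms, had the smallest p of the 16361 genes. It measured 9.45, 8.82 and 11.3 CPM in the 3 libraries at 10 µM, against 16.8 to 23.5 CPM (median 20.2) in the 12 libraries at 0.001 to 1 µM. The groups did not overlap, and the highest library at 10 µM stood well under the lowest of the others. The means were 9.87 ± 1.31 CPM at 10 µM and 20.3 ± 1.90 CPM at 0.001 to 1 µM (SD, n = 3 and n = 12), a 2.03-fold fall (log2 change -1.02, SE 0.07, edgeR adjusted p = 4.3e-10). Along the dose series the group means of CYP26B1 were 19.2 CPM at 0 µM, 21.9 at 0.001 µM, 21.1 at 0.01 µM, 19.7 at 0.1 µM, 18.5 at 1 µM, 9.87 at 10 µM and 5.38 at 100 µM. The 4 lower dose groups did not differ among themselves by the test (edgeR adjusted p = 0.449). Leaving out 10 µM replicate 1, 2 or 3 gave CYP26B1 log2 changes of -0.99, -0.95 and -1.15.

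STRA6 (ENSG00000137868, chr15:74179466-74212267, minus strand), the retinol receptor, measured 66.1, 59.7 and 67.3 CPM at 10 µM, against 76.5 to 102 CPM (median 92.8) at 0.001 to 1 µM. No library at 10 µM reached the lowest of the 12. The log2 change was -0.51 (SE 0.04, edgeR adjusted p = 7.7e-09), a 1.42-fold fall. STRA6 also differed among the 4 lower doses (edgeR adjusted p = 0.0258), with means of 95.2, 101, 90.7 and 81.9 CPM at 0.001, 0.01, 0.1 and 1 µM, and against 1 µM alone it was also called (log2 change -0.34, edgeR adjusted p = 0.00116). Its promoter window is shown because it is 1 of 3 among 14 tested members of the list with a RefSeq window (250 bases before to 50 after the gene's start) that hold a half-site of the retinoic acid receptors, AGGTCA or AGTTCA, searched on both strands. The 2 matches, in capitals, read TGACCT on the gene's strand, which is AGGTCA on the opposite strand, and begin 180 and 22 bases before the start (RefSeq, GRCh38.p14, chr15:74212210-74212509, minus strand, printed 5′ to 3′ along the gene).
STRA6: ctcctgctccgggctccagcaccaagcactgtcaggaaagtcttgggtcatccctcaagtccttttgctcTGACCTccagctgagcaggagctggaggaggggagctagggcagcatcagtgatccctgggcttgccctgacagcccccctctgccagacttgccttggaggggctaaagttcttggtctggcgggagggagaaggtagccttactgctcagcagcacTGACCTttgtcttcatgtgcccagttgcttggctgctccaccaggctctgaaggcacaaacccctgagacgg
A half-site is common, present in 22.6% of all 35116 promoter windows. A direct repeat of 2 half-sites spaced by 5 bases, the classical receptor element, was in 0.0199% of windows and in none of the 14. The window of CYP26B1 held no half-site. These matches describe letters in the window and show no binding.

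TGM2, transglutaminase 2, a protein-crosslinking enzyme long known to be induced by retinoic acid, measured 10.5, 10.1 and 10.6 CPM at 10 µM, against 14.4 to 17.8 CPM (median 16.4) at 0.001 to 1 µM. The 3 libraries at 10 µM lay close together and under all 12 others (log2 change -0.62, SE 0.06, edgeR adjusted p = 9.61e-08). DHRS3, the retinaldehyde reductase, measured 83.2, 77.1 and 87.2 CPM at 10 µM, against 98.8 to 114 CPM (median 105) at 0.001 to 1 µM, again without overlap (log2 change -0.35, SE 0.04, edgeR adjusted p = 1.54e-06). RARA, the receptor, measured 20.5, 20.2 and 22.9 CPM at 10 µM, against 22.6 to 30.2 CPM (median 27.0) at 0.001 to 1 µM. Its replicate 3 at 10 µM overlapped the lowest of the 12 (log2 change -0.31, edgeR adjusted p = 0.000756). RARRES1, named for its response to a receptor agonist, had 5.66, 4.48 and 4.16 CPM at 10 µM, against 4.89 to 7.86 CPM (median 6.74) at 0.001 to 1 µM, with replicate 1 inside the range of the 12. Its log2 change was -0.51 (edgeR adjusted p = 0.00577), and the adjusted p was 0.0693 without 10 µM replicate 3. CYP26A1, the sister hydroxylase, was near 1 CPM, with 26, 34 and 43 counts and 1.06 ± 0.163 CPM (SD, n = 3) at 10 µM, against 1.15 to 2.07 CPM (median 1.68) at 0.001 to 1 µM. The groups overlapped, and its call (log2 change -0.65, edgeR adjusted p = 0.0422) was lost in 9 of the 15 fits without 1 library, with an adjusted p of up to 0.272.

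The 11 tested genes of the list that did not pass include the receptor genes RARG, RXRA and RXRB, the synthesis genes RDH10, RDH11 and ALDH1A3, the retinoic acid carrier CRABP2 and the homeobox target HOXB2. RDH11 stood at a log2 change of 0.08 and RDH10 at -0.04, with no call in either direction. RARB, CYP26C1, LRAT, ALDH1A1, ALDH1A2 and CRABP1 were among the genes with too few counts to be tested, so the upstream synthesis step by the main ALDH1A enzymes could not be followed. Side by side, 100 µM against the same 12 libraries gave log2 changes of -1.92 for CYP26B1, -1.45 for STRA6, -1.79 for TGM2, -1.19 for DHRS3, -1.23 for RARRES1 and -0.32 for RARA. That comparison shares the 12 libraries, so its values are not independent of those at 10 µM, and 33.9% of all genes tested were called in it. Against 0 µM, which shares the 10 µM libraries and in which 2.56% of genes were called, the log2 changes at 10 µM were -0.94 for CYP26B1, -0.53 for STRA6, -0.64 for TGM2, -0.33 for DHRS3 and -0.20 for RARA, the last without a call (edgeR adjusted p = 0.0789). Of the 18 tested genes of the list, 6 were called lower and 1 higher against 0 µM, where 0.892% of all genes were called lower and 1.67% higher. The call of CYP26A1 was lost with 0 µM as reference.

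**Figure D3:**
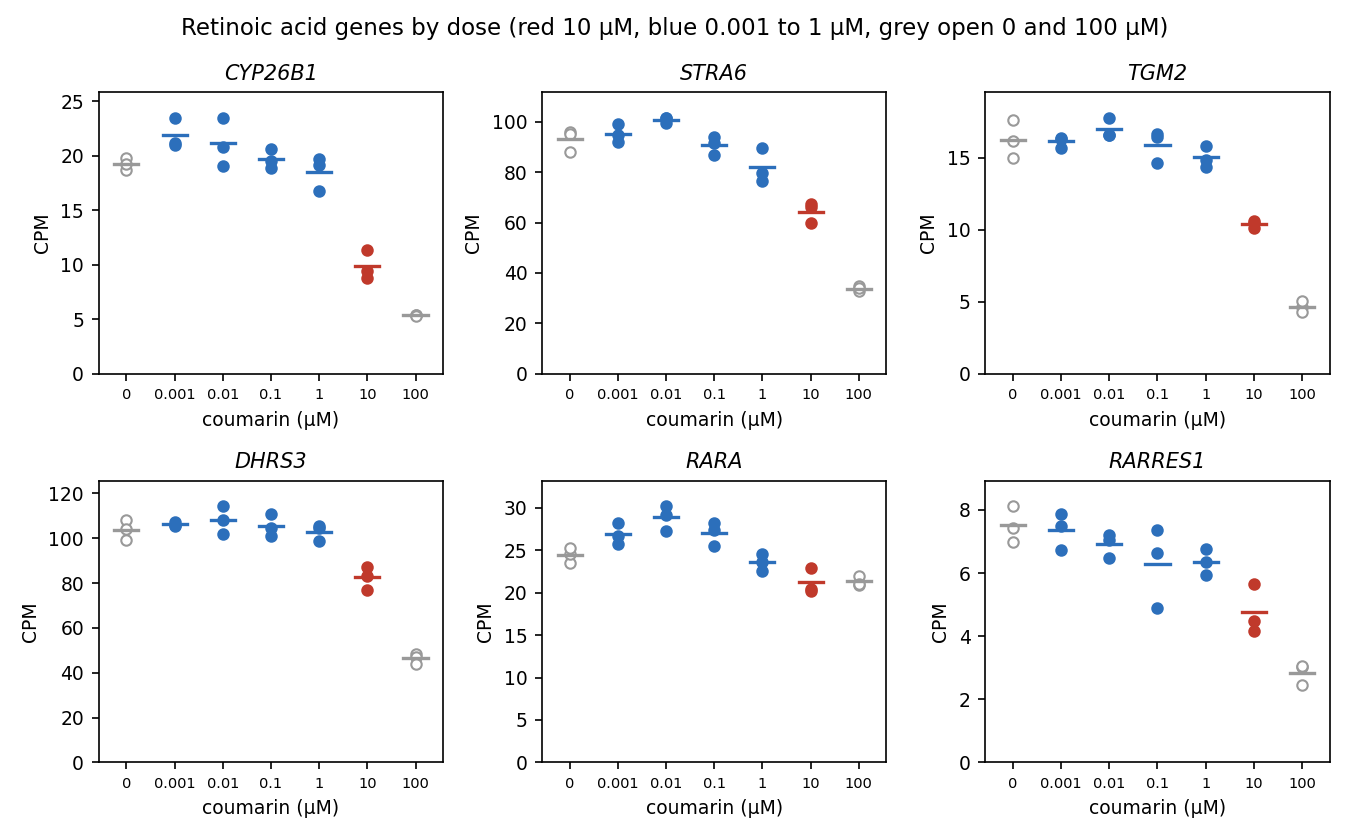
CPM of 6 retinoic acid genes in all 21 libraries by coumarin dose in µM, with red points at 10 µM, blue points at 0.001 to 1 µM, open grey points at 0 and 100 µM, and bars at the group means. CYP26B1, STRA6, TGM2 and DHRS3 at 10 µM lie below every blue point, with means of 9.87, 64.4, 10.4 and 82.5 CPM at 10 µM against 20.3, 92.2, 16.0 and 106 CPM at 0.001 to 1 µM, while RARA and RARRES1 overlap.

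Besides these, 3 noncoding transcripts fell and kept the call without each library, AC254633.1, AL161431.1 and AL365181.3. AC254633.1 (ENSG00000272482, chr1:12618900-12619244, minus strand), a long intergenic noncoding RNA of 345 bases, lies on the same strand as DHRS3, its nearer end at a distance of 1169 bases from the start of DHRS3. It measured 2.88, 3.56 and 3.16 CPM at 10 µM, against 4.41 to 5.99 CPM (median 5.21) at 0.001 to 1 µM, with no overlap (log2 change -0.72, SE 0.10, edgeR adjusted p = 3.81e-05). At 100 µM against the same 12 libraries its log2 change was -2.94, beside -1.19 for DHRS3. AL161431.1 on chromosome 13, of no known role here, measured 214, 226 and 201 CPM at 10 µM, against 246 to 315 CPM (median 286) at 0.001 to 1 µM (log2 change -0.39, edgeR adjusted p = 1.47e-07). AL365181.3, annotated as antisense, stood at -0.19 (edgeR adjusted p = 0.00378), and its reads cannot be told apart from those of the gene on the other strand. The mitochondrial ribosomal RNA MT-RNR1 rose (0.19), a call whose adjusted p was 0.18 without 10 µM replicate 1.

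Taken dose by dose, 11 genes were called lower at 10 µM against each of the 4 lower doses alone, where 0.648% of all genes tested were called lower against 0.001 µM, 2.92% against 0.01 µM, 0.953% against 0.1 µM and 0.0917% against 1 µM. They were CYP26B1, STRA6, TGM2, DHRS3 and its neighbour AC254633.1, AL161431.1, SCNN1A, TNFSF15, TGFBI, NRP2 and KRT18, of which NRP2 was named after its values were seen. SCNN1A, the α subunit of the epithelial sodium channel, measured 28.3, 27.2 and 28.1 CPM at 10 µM, against 34.0 to 43.4 CPM (median 38.7) at 0.001 to 1 µM. The 3 libraries at 10 µM lay close to each other and under all 12 others (log2 change -0.46, SE 0.05, edgeR adjusted p = 1.47e-07). TNFSF15, a cytokine of the tumour necrosis factor family, measured 11.1, 12.6 and 11.8 CPM at 10 µM, against 15.2 to 17.4 CPM (median 16.7) at 0.001 to 1 µM, also apart (log2 change -0.48, SE 0.06, edgeR adjusted p = 2.6e-06). NRP2, neuropilin 2, a co-receptor for semaphorins and vascular growth factors, had 32.5, 37.9 and 37.2 CPM at 10 µM, against 43.0 to 50.4 CPM (median 46.2) at 0.001 to 1 µM (log2 change -0.36, edgeR adjusted p = 2.6e-06). TGFBI, a matrix protein induced by TGF-β, had 72.3, 74.1 and 70.8 CPM at 10 µM, against 83.9 to 94.7 CPM (median 87.4) at 0.001 to 1 µM, and its change was smaller, -0.29 (edgeR adjusted p = 1.54e-06). Against 1 µM alone the edgeR adjusted p was 0.0420 for AL161431.1, 0.0390 for AC254633.1 and 0.0370 for KRT18. The tests against single doses were not repeated without a library. Each of the 11 genes still passed the test against the pooled lower doses when any 1 of the 15 libraries was left out. Beside them, 100 µM against the same 12 libraries gave -1.62 for SCNN1A, -1.83 for TNFSF15, -1.09 for NRP2 and -0.73 for TGFBI.

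Of the 14 largest falls among coding genes at 1 CPM or more without overlap, 9 held without every single library. Those not yet described were PTGS1, the constitutive cyclooxygenase that starts prostaglandin synthesis, BDKRB2, the bradykinin B2 receptor, KLHL3, a ubiquitin ligase adaptor for the WNK kinases, and RBPMS, an RNA-binding splicing regulator. PTGS1 measured 35.5, 37.2 and 34.8 CPM at 10 µM, against 40.9 to 51.8 CPM (median 47.7) at 0.001 to 1 µM (log2 change -0.38, SE 0.04, edgeR adjusted p = 2.6e-06). BDKRB2 measured 3.17, 2.83 and 3.28 CPM at 10 µM, against 3.92 to 5.43 CPM (median 4.75) at 0.001 to 1 µM (log2 change -0.60, edgeR adjusted p = 0.000817). KLHL3 had log2 change -0.42 and RBPMS -0.36. The other 5 were at low levels or lost the call without 1 or more libraries: MAG, a myelin glycoprotein (-0.92), DCST1 (-0.63), LOXL4, a collagen-crosslinking lysyl oxidase (-0.54), ITGB8, an integrin β chain (-0.45), and ZNF385A, a zinc finger regulator (-0.38). For MAG, ITGB8 and ZNF385A the libraries that ended the call were all at 10 µM: the adjusted p was 0.122 for MAG without replicate 2, 0.307 for ITGB8 without replicate 1 and 0.0583 for ZNF385A without replicate 3. LOXL4 lost it in 7 and DCST1 in 11 of 15 fits, with adjusted p of up to 0.389 and 0.222.

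Genes of amino acid synthesis and stress were among the rises at 10 µM. PSAT1 (ENSG00000135069, chr9:78297143-78330093, plus strand), the aminotransferase of serine synthesis, had the smallest p among the rises. It measured 194, 211 and 202 CPM at 10 µM, against 155 to 182 CPM (median 174) at 0.001 to 1 µM, and every library at 10 µM was above every one of the 12. The means were 202 ± 8.43 CPM at 10 µM and 171 ± 9.30 CPM at 0.001 to 1 µM (SD, n = 3 and n = 12), and the log2 change was 0.24 (SE 0.03, edgeR adjusted p = 1.31e-05). NUPR1, a stress-induced chromatin protein, measured 52.2, 48.6 and 51.2 CPM at 10 µM, against 39.3 to 45.8 CPM (median 43.7) at 0.001 to 1 µM, without overlap (log2 change 0.23, SE 0.04, edgeR adjusted p = 0.000968). CTH, the cystathionine γ-lyase that makes cysteine, measured 56.5, 58.8 and 56.0 CPM at 10 µM, against 48.0 to 53.1 CPM (median 49.9) at 0.001 to 1 µM, again without overlap (log2 change 0.19, edgeR adjusted p = 0.00293). PSAT1, NUPR1 and CTH passed without every single library, and so did XAGE2, a cancer-testis antigen of a family of similar copies whose reads may be shared (33.0, 33.0 and 31.8 CPM at 10 µM, against 24.8 to 30.6 CPM (median 27.3) at 0.001 to 1 µM, log2 change 0.24).

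In the list of ATF4 and stress-response regulators, 3 of 21 tested genes rose (NUPR1, CTH and DDIT4) and none fell, against 0.568% of all genes called higher. The list's median log2 change was 0.089, and 17 of the 21 were positive, where 8591 of all 16361 genes tested were positive. Leaving out 1 library at a time gave 3 or 4 rises. With 0 µM as reference there was 1, and with GC and length trends removed there were 5. DDIT4, an mTORC1 inhibitor, measured 302, 259 and 292 CPM at 10 µM, against 190.0 to 306 CPM (median 240.0) at 0.001 to 1 µM, and the groups overlapped (log2 change 0.26, edgeR adjusted p = 0.00148). Its means of 196, 257, 298 and 214 CPM at 0.001, 0.01, 0.1 and 1 µM followed no order of dose, and its call was lost without the 0.001 µM group and with the 12 libraries taken as 1 group. CHAC1, which degrades glutathione, had 2.41, 3.16 and 2.89 CPM at 10 µM, against 1.73 to 2.47 CPM (median 2.07) at 0.001 to 1 µM, and missed the threshold (log2 change 0.45, edgeR adjusted p = 0.0508). ASNS, asparagine synthetase, had 2.41, 2.50 and 2.47 CPM at 10 µM, against 1.39 to 2.41 CPM (median 1.80) at 0.001 to 1 µM, with the highest of the 12 at the level of the 10 µM libraries (log2 change 0.46, edgeR adjusted p = 0.0873). PHGDH, which opens serine synthesis, had 251, 253 and 266 CPM at 10 µM, against 233 to 247 CPM (median 239) at 0.001 to 1 µM. Although these did not overlap, its small change (0.11, edgeR adjusted p = 0.0478) lost the call in 13 of 15 fits without 1 library, with an adjusted p of up to 0.232. At 100 µM against the same 12 libraries, the log2 changes were 1.52 for PSAT1, 1.35 for NUPR1, 0.63 for CTH, 2.59 for ASNS, 3.21 for CHAC1 and 0.97 for PHGDH. Against 0 µM, PSAT1 at 10 µM stood at 0.30 and NUPR1 at 0.20, both called, and CTH at 0.10, not called.

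The cytosolic aminoacyl-tRNA synthetases load amino acids onto tRNA. Of 20 genes tested, 6 rose (WARS, IARS, TARS, FARSB, SARS and MARS), 14 were not called and none fell, against 0.568% of all genes called higher. The median log2 change was 0.093, against 0.006 for all genes tested. Of the 20, 17 were positive, where 8591 of all 16361 genes tested were. WARS, for tryptophan, measured 171, 176 and 179 CPM at 10 µM, against 154 to 168 CPM (median 160.2) at 0.001 to 1 µM (log2 change 0.14, SE 0.03, edgeR adjusted p = 0.00696). IARS, for isoleucine, measured 265, 278 and 273 CPM at 10 µM, against 238 to 260.0 CPM (median 251) at 0.001 to 1 µM, and TARS, for threonine, 436, 433 and 415 CPM at 10 µM, against 373 to 412 CPM (median 388) at 0.001 to 1 µM. WARS, IARS and TARS did not overlap between the groups, while the ranges of FARSB, SARS and MARS did. With members that were not called, 4 of the 20 lay above all 12 libraries, against 0.721% of all genes tested. The count depended on single libraries: it was 2 without 10 µM replicate 1, 2 without 10 µM replicate 2, 3 without 1 µM replicate 1 and 0 without the 0.01 µM group. WARS alone kept its call without each library, with an adjusted p of up to 0.0481.

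Stretches of the promoter windows that hold the composite element of ATF4 and C/EBP factors, TGATGNAAN searched on both strands, are shown for 2 synthetases that rose and for ASNS and CHAC1, which missed the threshold. The element, in capitals, was in 6 of 16 synthetase windows (IARS, TARS, MARS, NARS, CARS and AARS), in 2 of 18 windows of the ATF4 list and in 3.61% of all 35116 windows, and the sequences are from RefSeq (GRCh38.p14), 5′ to 3′ along each gene. The stretches lie at chr9:92293677-92293737 (minus strand) for IARS, chr5:33440940-33441000 (plus) for TARS, chr7:97872442-97872502 (minus) for ASNS and chr15:40953235-40953295 (plus) for CHAC1.
IARS: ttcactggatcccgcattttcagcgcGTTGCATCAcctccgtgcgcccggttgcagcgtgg
TARS: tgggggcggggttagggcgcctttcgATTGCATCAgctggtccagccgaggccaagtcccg
ASNS: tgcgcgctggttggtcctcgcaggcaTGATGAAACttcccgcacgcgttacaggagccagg
CHAC1: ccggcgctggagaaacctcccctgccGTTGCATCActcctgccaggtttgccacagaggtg
The capitals of IARS, TARS and CHAC1 hold the element on the opposite strand and those of ASNS on the gene's strand, at 14 bases before the start for IARS, 68 for ASNS and 210 for CHAC1, and just inside the transcribed part for TARS. WARS, the synthetase with the firmest call, was not among the genes with a match in the window. The windows of the risers PSAT1, CTH, DDIT4, PHGDH and FARSB held no match either. In the list of serine, glycine and one-carbon synthesis 1 of 8 windows held the element, that of MTHFD1L, which was not called.

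**Figure D4:**
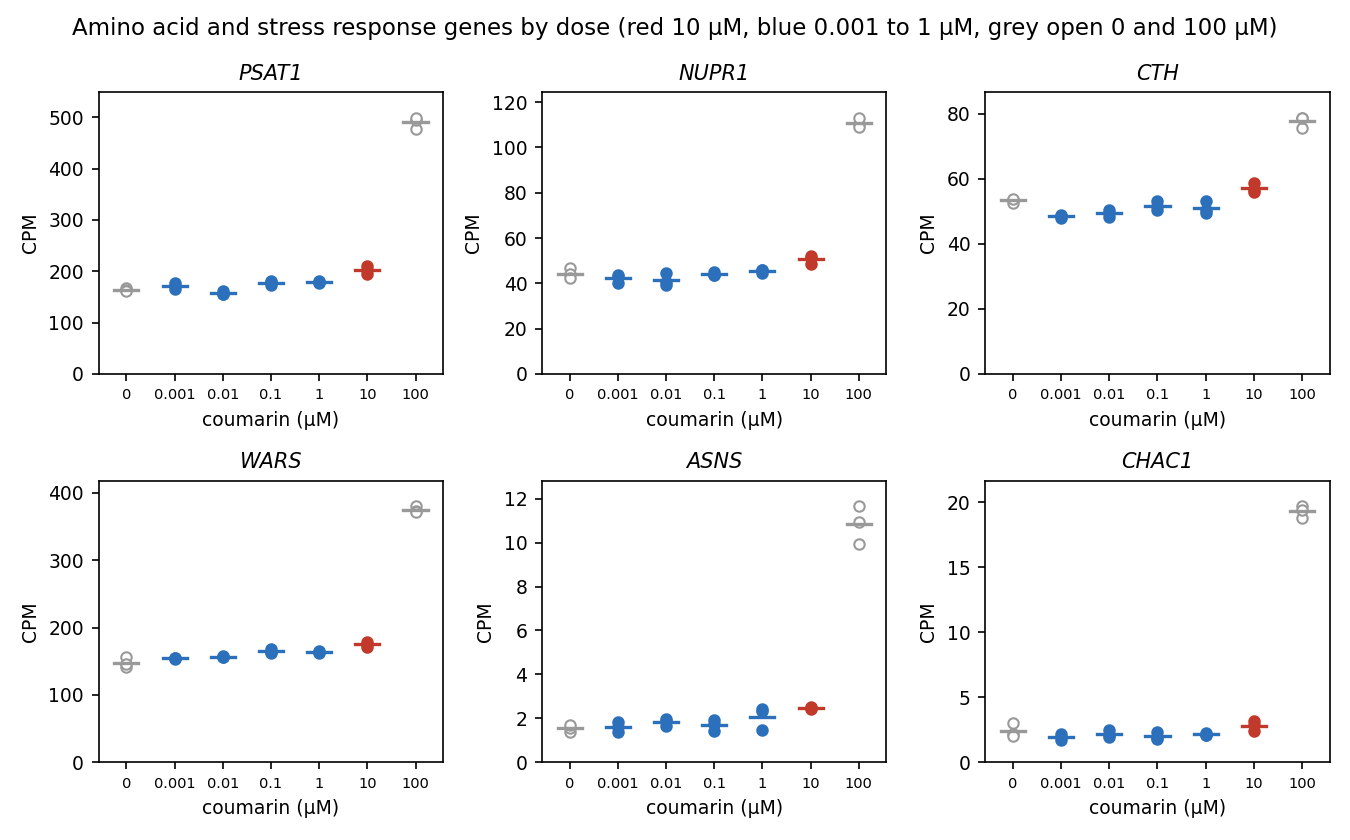
CPM of 6 amino acid and stress response genes in all 21 libraries by coumarin dose in µM, with red points at 10 µM, blue points at 0.001 to 1 µM, open grey points at 0 and 100 µM, and bars at the group means. PSAT1, NUPR1, CTH and WARS at 10 µM lie just above all blue points, with means of 202, 50.7, 57.1 and 175 CPM at 10 µM against 171, 43.3, 50.1 and 160.0 CPM at 0.001 to 1 µM. The red points of ASNS and CHAC1 lie around or above the highest blue point, with overlap.

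The remaining 10 of the 14 largest rises without overlap each lost the call without at least 1 library. Among them SLC9B2, a mitochondrial sodium and proton exchanger, measured 23.2, 27.4 and 24.1 CPM at 10 µM, against 19.2 to 21.9 CPM (median 20.7) at 0.001 to 1 µM (log2 change 0.28), with an adjusted p of 0.0579 without 10 µM replicate 2. PAK1IP1, a ribosome assembly factor, measured 50.8, 49.5 and 45.1 CPM at 10 µM, against 38.4 to 44.5 CPM (median 41.1) at 0.001 to 1 µM (log2 change 0.23), with 0.0506 without 10 µM replicate 1. The tRNA deaminase subunit ADAT2 stood at 0.22, the purine salvage enzyme PNP and EIF2B3, a subunit of the exchange factor for eIF2, at 0.18 each, GDAP1 of the mitochondrial outer membrane at 0.17, and SUCLG1 of the citric acid cycle, INSIG1, RPS19BP1 and RABEPK at 0.16 each. PNP, SUCLG1 and EIF2B3 lost the call without 10 µM replicate 1 alone, with adjusted p of 0.0585, 0.118 and 0.121. Without replicate 1 or 2 at 10 µM, INSIG1 had 0.121 and 0.0639 and GDAP1 0.192 and 0.0809. RABEPK lost it in 5 and RPS19BP1 and ADAT2 in 6 of 15 fits, with adjusted p of up to 0.161, 0.135 and 0.339.

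Some keratin and duct markers, matrix genes and targets of the YAP and TGF-β pathways fell. Of 8 tested epithelial markers, 4 fell (KRT18, KRT8, KRT7 and SFN) and none rose, against 1.63% of all genes called lower. All 8 were negative, with a median log2 change of -0.161, where 7770 of all 16361 genes tested were negative. KRT18, an intermediate filament keratin with many processed copies that may share its reads, measured 1098, 1192 and 1131 CPM at 10 µM, against 1254 to 1352 CPM (median 1304) at 0.001 to 1 µM, without overlap (log2 change -0.19, edgeR adjusted p = 0.000756). The partner keratin KRT8 measured 2449, 2441 and 2524 CPM at 10 µM, against 2564 to 2822 CPM (median 2707) at 0.001 to 1 µM (-0.13), and its call was lost without 10 µM replicate 1 or 2 (adjusted p of 0.121 and 0.0606). Against 0 µM KRT18 stood at -0.09 and KRT8 at 0.04, neither called. The epithelial count was 1 without 10 µM replicate 1 and 2 without 10 µM replicate 2. Among 10 tested fibroblast markers, 3 fell (PDGFRB, COL3A1 and COL1A1) and none rose, against 1.63% of all genes called lower. In this list 8 were negative and 2 positive, with a median log2 change of -0.08. VIM averaged 307 CPM at 10 µM and 310 CPM at 0.001 to 1 µM, and PDGFRA had no counts. PDGFRB, a growth factor receptor, measured 31.9, 34.0 and 34.7 CPM at 10 µM, against 37.3 to 44.1 CPM (median 41.0) at 0.001 to 1 µM (log2 change -0.27, edgeR adjusted p = 0.000817). The call of PDGFRB was lost with 0 µM as reference. The fibroblast count was 1 without 10 µM replicate 1.

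In the list of YAP and TGF-β response genes, 6 of 20 fell (TGFBI, CTGF, CYR61, CRIM1, AMOTL2 and THBS1) and none rose, against 1.63% of all genes called lower, and the median log2 change was -0.108. CTGF, a secreted matricellular factor, measured 38.9, 40.8 and 40.5 CPM at 10 µM, against 40.0 to 55.8 CPM (median 49.8) at 0.001 to 1 µM, with the ranges overlapping at the bottom of the 12 (log2 change -0.31, SE 0.04, edgeR adjusted p = 0.000115). CYR61, its relative, measured 105, 108 and 105 CPM at 10 µM, against 107 to 134 CPM (median 125) at 0.001 to 1 µM (log2 change -0.21). Both were called against 1 µM alone, at -0.46 and -0.31, and neither against 0 µM, at -0.14 and -0.01. Neither was called against 0.1 µM alone, at -0.10 and -0.09, and both calls were lost with the 12 libraries taken as 1 group. CTGF also differed among the 4 lower doses (edgeR adjusted p = 0.0111). Its means were 48.3, 52.8, 43.2 and 55.0 CPM at 0.001, 0.01, 0.1 and 1 µM. The list's count was 2 without 10 µM replicate 1 and 3 without the 0.01 µM group. Of 24 tested matrix and collagen genes, 4 fell (COL3A1, COL5A1, COL1A1 and FN1) and none rose, against 1.63% of all genes called lower. In this list 23 were negative with a median of -0.108, where 7770 of all 16361 genes tested were negative. COL3A1, a fibrillar collagen chain, measured 1117, 1221 and 1174 CPM at 10 µM, against 1233 to 1362 CPM (median 1305) at 0.001 to 1 µM (-0.15), and FN1, fibronectin, 42.0, 41.4 and 43.2 CPM at 10 µM, against 43.5 to 55.6 CPM (median 49.4) at 0.001 to 1 µM (-0.23). The matrix count was 0 without 10 µM replicate 1, 2 without replicate 2 and 0 without the 0.01 µM group. Against 0 µM, 4 matrix genes were called higher at 10 µM and none lower, where 1.67% of all genes were called higher and 0.892% lower. In that comparison COL3A1, COL5A1 and FN1 stood at 0.01, 0.10 and 0.05, not called.

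Of 25 tested genes of cholesterol synthesis and sterol sensing, INSIG1, IDI1 and ACAT2 rose and none fell, against 0.568% of all genes called higher, with a median of 0.039. None passed without 10 µM replicate 1, without 10 µM replicate 2 or without the 0.01 µM group. Against 0 µM 7 were called higher, where 1.67% of all genes were. INSIG1, the sterol sensor that holds back the SREBP factors, measured 92.6, 93.2 and 91.2 CPM at 10 µM, against 76.5 to 88.9 CPM (median 83.0) at 0.001 to 1 µM (log2 change 0.16), while at 100 µM against the same 12 libraries it stood at -0.42. Of 18 heat shock proteins HSPA8, HSPA9 and DNAJA1 rose, against 0.568% of all genes, and none of them passed without 10 µM replicate 1. Of 14 genes of asparagine, proline and related synthesis ASS1, which joins citrulline to aspartate, rose (0.16) and the glutamine synthetase GLUL fell (-0.19). Of 13 genes of serine, glycine and one-carbon synthesis PSAT1 and PHGDH rose, and of 13 amino acid transporters none passed by edgeR (0 at an unadjusted p under 0.05, none with DESeq2 or limma), with a median of -0.009. In the mitosis list AURKA, a spindle kinase, was the only call of 32 (0.12, edgeR adjusted p = 0.0495, lost in 13 of 15 fits without 1 library). In this list 29 were positive with a median of 0.08, where 8591 of all 16361 genes tested were positive. MKI67, the proliferation marker, was at 0.04 (edgeR adjusted p = 0.703).

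Of 16 tested NF-κB and inflammatory genes, 4 fell (TNFSF15, NFKB1, TNFAIP2 and IER3) and none rose, against 1.63% of all genes called lower, a count of 1 without 10 µM replicate 2 and of 2 without replicate 1 or 3. Of 13 tested feedback genes of the ERK pathway, IER3, SPRED2, an inhibitor of RAS signalling, and EPHA2, an ephrin receptor, fell and none rose. In this list 11 were negative and the median was -0.099, where 7770 of all 16361 genes tested were negative. The log2 changes were -0.15 for IER3, -0.19 for SPRED2 and -0.18 for EPHA2, and the groups overlapped for each. The count was 1 in 7 of 15 fits without 1 library, among them those without 10 µM replicate 1, 2 or 3, and 0 without the 0.01 µM group or the 0.1 µM group. Of 20 immediate early genes, IER3 and the nuclear receptor NR4A1 (-0.19, edgeR adjusted p = 0.0485) fell and none rose, with a median of -0.027, and the call of NR4A1 was lost in 10 of 15 fits without 1 library. Neither passed without 10 µM replicate 2. Of 8 targets of the aryl hydrocarbon receptor, the sensor of aromatic compounds, ALDH3A1 and AHRR fell. The call of AHRR, the receptor's repressor, was lost in 11 of 15 fits without 1 library (adjusted p of up to 0.343), which left a count of 1. ALDH3A1, an aldehyde dehydrogenase, measured 37.6, 37.1 and 38.4 CPM at 10 µM, against 40.3 to 47.8 CPM (median 44.2) at 0.001 to 1 µM, without overlap (log2 change -0.23, SE 0.04, edgeR adjusted p = 0.000979), and the receptor's best known target CYP1A1 was not called (-0.24, edgeR adjusted p = 0.671). Of 23 NRF2 targets the efflux pump ABCC3 (-0.23) and the ferritin heavy chain FTH1 (-0.13) fell, and NQO1, a quinone reductase, stood at 0.04 (edgeR adjusted p = 0.607). CYP2A6, the main human enzyme that hydroxylates coumarin in liver, had 0 to 5 counts and CYP3A4 0 or 1 count per library, so neither could be tested, and VKORC1, the target of coumarin-derived anticoagulants, stood at 0.06 (edgeR adjusted p = 0.716). By edgeR no gene passed among 22 p53 targets (1 at an unadjusted p under 0.05, none with DESeq2 or limma), 10 genes of the vitamin K cycle and coagulation (0 unadjusted, none with DESeq2 or limma), 17 of fatty acid and triglyceride synthesis (1 unadjusted, 1 with DESeq2) or 22 of ribosome biogenesis (3 unadjusted, 1 with DESeq2). Single members fell in the interferon (IFITM3 of 19 tested, with 0.00 against 0 µM), apoptosis (BMF of 22) and DNA replication (CDT1 of 31) lists. In the metallothionein list MT2A of 7 fell, with reads that close copies may share. Single members rose in the cell cycle entry (CDC25A of 21), respiratory chain (NDUFS3 of 32), ribosomal protein (RPL19 of 40) and unfolded protein (XBP1 of 21) lists. Over all genes tested, 1.63% were called lower and 0.568% higher. Without 1 library at a time the call was lost in 1 of 15 fits for IFITM3, 2 for CDT1, 10 for BMF and CDC25A each, 12 for MT2A, NDUFS3 and RPL19 each and 13 for XBP1.

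Among 27 hypoxia and glycolysis genes tested, ADM rose and GPI fell, against 0.568% of all genes called higher and 1.63% lower. ADM, the vasodilator peptide adrenomedullin, measured 33.9, 24.3 and 32.0 CPM at 10 µM, against 10.9 to 30.3 CPM (median 17.9) at 0.001 to 1 µM, with the ranges overlapping (log2 change 0.77, SE 0.12, edgeR adjusted p = 0.00487). It also differed among the 4 lower doses (edgeR adjusted p = 0.0375), with means of 12.1, 19.5, 27.6 and 14.9 CPM at 0.001, 0.01, 0.1 and 1 µM. Its mean at 0 µM was 31.5 CPM beside 30.1 CPM at 10 µM, and its call was lost without the 0.001 µM group. GPI, a glycolytic isomerase, stood at -0.16, a call that ended without 10 µM replicate 2 (adjusted p of 0.118).

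**Figure D5:**
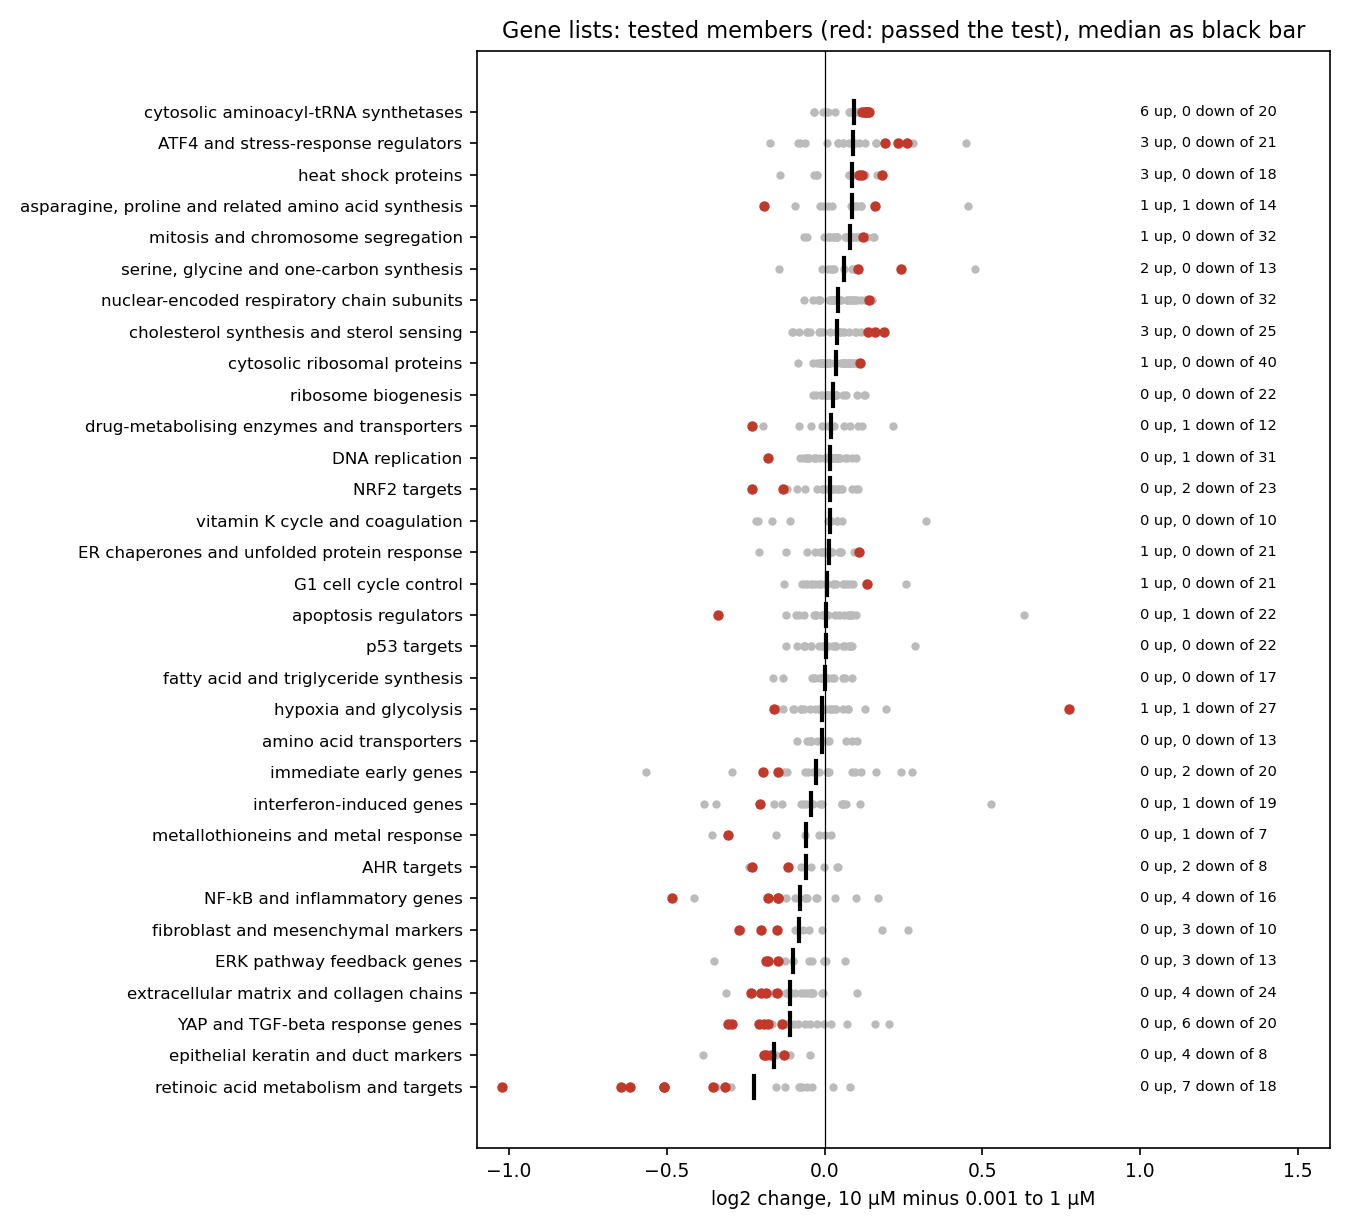
Each grey point is the log2 change, 10 µM minus 0.001 to 1 µM, of 1 tested gene in the list named on the left, red points passed an edgeR adjusted p under 0.05, and black bars are list medians. Among the lists plotted the retinoic acid list sits lowest, with a median of -0.224 and 7 of 18 genes called lower, and the tRNA synthetase list highest, with a median of 0.093 and 6 of 20 called higher.

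Against single doses the counts varied without following the distance in dose. At 10 µM 19 genes were called against 1 µM (0.116%), 179 against 0.1 µM (1.09%), 667 against 0.01 µM (4.08%) and 147 against 0.001 µM (0.898%), where 40 genes (0.244%) differed among the 4 lower doses themselves. Of the 359 genes called against the pooled doses, 354 had the same sign against each of the 4, and 19 also differed among them. Higher calls made up 0.251% of genes against 0.001 µM, 1.16% against 0.01 µM, 0.141% against 0.1 µM and 0.0244% against 1 µM, the nearest dose, which gave 15 genes lower and 4 higher. Against 0 µM, 1.67% of genes were called higher and 0.892% lower. Besides the 11 genes called lower against every dose, CTGF, CYR61, SYNJ2 and MTCO1P12 were lower and DDIT4, ADM, RHOB and MN1 higher than at 1 µM, of which SYNJ2, MTCO1P12, RHOB and MN1 are named after their values were seen. MTCO1P12 is a nuclear copy of a mitochondrial gene whose reads may belong to the original.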

How the data were processed

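Poly(A) RNA of 21 cultures was sequenced, and 15 libraries enter the comparison. The authors deposited raw counts per gene as whole numbers, and FPKM scaled by gene length and library total. The submitters' processing notes list HISAT2, DESeq2 and GRCh38 but no version. The read counter and strand setting were not given in the sources used here, so reads of overlapping or antisense genes cannot be told apart. All 58735 identifiers are in GENCODE release 29.

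Libraries were grouped by labelled dose. Counts were tested in R 4.3.3 with edgeR 4.0.16 (filterByExpr, TMM scaling, robust quasi-likelihood F test, 5 dose groups, 10 residual degrees of freedom, biological coefficient of variation 4.65%), as 10 µM minus the mean of the 4 lower dose groups, two-sided, with Benjamini-Hochberg adjustment over 16361 genes and a threshold of 0.05. "Rose", "fell" and "called" refer to that threshold. CPM were computed here from the deposited counts with TMM-scaled totals. A fit of 18 libraries gave the values at 100 µM and a fit of 21 those against 0 µM. The scripts were tested on simulated data. Totals per library limit precision, and intervals over replicates include counting error. The labels give no batch or date. Replicates differed by more than sampling noise, so none was a duplicate.

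The comparison, gene lists and rules were chosen with earlier results of these data known, and the lists carry no test. Named genes are the 14 largest rises and 14 largest falls among called coding genes of at least 1 CPM with the 3 libraries at 10 µM outside the range of the 12, up to 4 called members of each list (2 where none was called) and up to 4 called noncoding genes by smallest p. CYP26B1, CYP26A1, ASNS, CHAC1, PSAT1, PHGDH, ALDH3A1, CYP1A1, CYP2A6, CYP3A4, VKORC1, NQO1, MKI67, INSIG1, IER3, CCNE1, DCST1 and IGFN1 were also included; CCNE1 stood at 0.26 and IGFN1 at 0.10, neither called. RARA, RARRES1, AMOTL2, THBS1, SARS and MARS were added as called list members after their values were seen. Promoter windows were found in RefSeq for 84 of 110 named genes. Alternatives were other scalings (RLE, upper quartile), filters (none, 1 CPM in 3 libraries), fits of 18 or 21 libraries, the 12 libraries as 1 group, a block for replicate number, fits without each library or dose group, comparison with 0 µM, a covariate for reads outside the counted genes (from the deposited FPKM), removal of GC and length trends, stricter thresholds (adjusted p under 0.01, a 25% difference), prior count 2, DESeq2 1.42.0 and limma 3.58.1 on log2 FPKM plus 1 or 0.1. Leaving out libraries for the list counts was added after seeing the data.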

Additional observations from a re-analysis of the deposited data

How the results depend on the processing

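Of the 359 calls (93 higher, 266 lower), scaling, a 1 CPM filter, 18 or 21 libraries in the fit and the replicate block (275 calls, 67 higher) kept the counts within 1.5 times. The same replicate numbers did not pair libraries: 1 of 30 same-number correlations of deviations was over 0.1 (range -0.144 to 0.135), and 4 of 15 libraries correlated best with their own number. Without 1 library at a time the count was 83 to 437 (14 to 125 higher, 69 to 334 lower), lowest without 10 µM replicate 1. It was 98 (16 higher, 82 lower) without the 0.01 µM group, 215 (46, 169) without 0.1 µM and 633 (194, 439) without 1 µM. It was 134 (27, 107) with the 12 libraries as 1 group, 162 (47, 115) with the share of reads outside counted genes as a covariate, which was 3.68% to 4.49% at 10 µM and 1.04% to 5.43% at 0.001 to 1 µM, and 572 (273 higher) with GC and length trends removed. Stricter thresholds left 127 (19, 108) at an adjusted p under 0.01 and 50 (8, 42) at a difference of 25% or more. Limma on log2 FPKM gave 167 (44, 123) with a pseudocount of 1 and 165 (40, 125) with 0.1, DESeq2 534 (156 higher), and no filter 528 (435 lower). With 0 µM as reference, in a fit of 21 libraries with its own filter (16699 genes), 437 genes were called. Of these 291 were higher and 146 lower, 33.4% lower in place of 74.1%. On the 16361 genes of the main test, to which the percentages against 0 µM given above refer, 419 were called, 273 higher and 146 lower. Against 0 µM the log2 changes of IFITM3 (0.005), ADM (-0.063), COL3A1 (0.009), COL5A1 (0.105), KRT8 (0.038) and FN1 (0.055) had the opposite sign, none called. Without a filter 82.4% and without 10 µM replicate 1 83.1% of calls were lower. The block gave 107 calls against 0.1 µM and DESeq2 29 against 1 µM, 330 against 0.1 µM and 300 against 0.001 µM. The cause of these differences was not tested. CYP26B1, STRA6, TGM2, SCNN1A, DHRS3, TNFSF15, NRP2 and PTGS1 kept their direction and call in all of these alternatives and without each library. Genes near or under 1 CPM, such as CYP26A1, MAG and DCST1, are limited by depth.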

Other observations

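Among the 65 genes called in the full set and without each of the 15 libraries, 9 rose and 56 fell at 10 µM, and some outside the lists are named here after their values were seen. Among those that rose were PCID2, a protein of messenger RNA export, with a mean of 158 CPM at 10 µM and 143 CPM at 0.001 to 1 µM (log2 change 0.15, edgeR adjusted p = 0.00406), and PSMD7, a proteasome lid subunit, with 120.1 CPM at 10 µM and 108 CPM at 0.001 to 1 µM (log2 change 0.16, edgeR adjusted p = 0.00545). The others given here fell. JUP, plakoglobin, a protein of desmosomes and adherens junctions, averaged 594 CPM at 10 µM and 736 CPM at 0.001 to 1 µM (log2 change -0.30, edgeR adjusted p = 3.81e-05). C1QTNF6, a secreted protein of the C1q family, averaged 209 CPM at 10 µM and 255 CPM at 0.001 to 1 µM (log2 change -0.28, edgeR adjusted p = 1.54e-06), and SYNPO, an actin-binding protein, 91.7 CPM at 10 µM and 115 CPM at 0.001 to 1 µM (log2 change -0.32, edgeR adjusted p = 2.11e-05). For JUP, C1QTNF6 and SYNPO the 3 libraries at 10 µM lay under all 12 others. IGFBP3, a carrier of insulin-like growth factors, stood at -0.25, WNT7B, a secreted ligand, at -0.23, SMAD3, the signal transducer of TGF-β receptors, at -0.20, and GATA2, a zinc finger transcription factor, at -0.23. ALPP and ALPG, the placental and germ cell alkaline phosphatases, stood at -0.20 and -0.31, and since the pair is nearly identical their reads may be split between them. ALPL, the tissue-nonspecific form, stood at -0.20. Against 0 µM the same libraries at 10 µM gave -0.17 for JUP, -0.04 for WNT7B and -0.04 for ALPL, none called, and -0.27 for C1QTNF6 and -0.32 for IGFBP3, both called.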
